A study of Homo sapiens with 58 samples.

Results

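HuR is an RNA-binding protein encoded by ELAVL1, and its contacts with RNA were compared between the nuclear and the cytoplasmic fraction of Huh-7.5 cells, a hepatoma line derived from Huh-7. The comparison used 6 of the 58 libraries of the series, 3 labelled nuclear RNA and 3 labelled cytoplasmic RNA. All 6 came from cells labelled wild type and Mock, without the APEX proximity reaction that other libraries of the series used, and all were made with the HuR antibody 3A2. HuR CLIP-seq was done on UV-crosslinked cells: RNA bound to HuR was trimmed with RNase I at 1 of 2 dilutions (which library had which is not given in the sources used here), immunoprecipitated and read as sequence tags. The members were every peak of the authors' combined peak table with tags in these libraries, 337480 of 387214 peaks after 8257 repeated lines were dropped, and 271061 of them carried a gene name. Peaks were 20 nucleotides long and were summed for each gene, and for each gene and annotation class (3'UTR, intron, CDS and so on), which is called a unit below. Values are CPM, tags per 1000000 tags of a library, so they are shares of a library and not amounts of RNA.

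HuR binds U-rich and AU-rich RNA through its RNA recognition motifs. It is mostly nuclear in unstressed cells and shuttles to the cytoplasm; on introns it is known for effects on splicing and polyadenylation, and on 3'UTRs for stabilising mRNAs and changing their translation. Introns are removed in the nucleus, whereas a mature 3'UTR is carried to the cytoplasm with its mRNA.

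The libraries held 686263 to 1099896 tags, of which 34.1% to 38.7% lay in peaks; 1 tag was worth 0.909 to 1.46 CPM and the floor of 3 tags was 2.73 to 4.37 CPM. The nuclear libraries differed from each other little more than tag counting alone gives (chi-square per degree of freedom 1.05 to 1.11 over units of at least 20 tags). Cytoplasmic library 1 stood apart from the other cytoplasmic libraries (2.36 and 2.40, against 1.36 between libraries 2 and 3). The labels do not say that the replicates were separate cultures, so the p-values measure only the spread between these libraries, which may be technical. No RNA-seq of the fractions was analysed here, so HuR contacts per RNA and the amount of the RNA in a fraction cannot be told apart in any value below. Of 8 hepatocyte markers, 6 had peaks in the table: ALB, AFP, APOB, SERPINA1 and FGB were lower in the nuclear libraries, by 0.74 to 1.72 on the log2 scale, and TF did not pass the test (-0.05, limma adjusted p = 0.85). APOA1 and TTR had no peak listed under those names. Among compartment markers NEAT1, which stays in the nucleus, was higher in the nuclear libraries (1.71), and NORAD and MT-RNR2, cytoplasmic and mitochondrial RNAs, were lower (-2.23 and -1.26). MALAT1, also a nuclear marker, did not pass the test, and its groups overlapped. Sums of ribosomal protein genes, taken as cytoplasmic markers, went both ways (median 0.18, 13 higher and 12 lower of 69 tested). Their split by kind of peak is given below. RN7SL1 averaged 0.322 CPM over the nuclear libraries and was listed at 0 in every cytoplasmic one, and 7SK had no peak listed under RN7SK.

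Genes whose 3'UTR carried fewer HuR tags in the nuclear libraries, and genes whose introns carried more, made up most of the difference. Over 21245 units tested on log2(CPM + 2.28), 2714 (12.8%) were higher in the nuclear libraries and 3441 (16.2%) lower at a Benjamini-Hochberg adjusted p under 0.05 (limma, trend, 3 against 3 libraries). The 3'UTR held 3006 of the lower units (49.4% of 6090 tested, median -0.98) and 44 higher ones (0.722%). Introns held 1931 of the higher units (25.1% of 7707 tested, median 0.48) and 137 lower ones (1.78%). Summed over all their peaks, 1473 genes (13.8% of 10637) were higher and 1947 (18.3%) lower, with a median of 0.01; without cytoplasmic library 2 the higher genes numbered 880, and with DESeq2 809. The split of higher and lower units moved with the scaling: it was 1306 and 3929 after TMM scaling, which shifted the median of all units by -0.14, and 3464 and 3336 when libraries were scaled to their tags in peaks. The count tests, which change the model as well as the scaling, gave 1211 and 3801 with edgeR and 793 and 2720 with DESeq2. Cytoplasmic library 2 weighed most on the higher calls, which numbered 1418 without it, 1584, 1618 and 1706 without nuclear libraries 1, 2 and 3, and 1784 without cytoplasmic library 3. Without cytoplasmic library 1, which stood apart, they numbered 2396, with 3219 lower.

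Apart from the actin-like POTEF and POTEI, GDI2 and GLUD1 had the lowest 3'UTR differences. GDI2, which encodes a GDP dissociation inhibitor that recycles Rab GTPases, had 37.9, 47.3 and 35.7 CPM in its 3'UTR in the nuclear libraries and 555, 684 and 820.4 CPM in the cytoplasmic ones. The groups lay far apart, and the log2 difference was -4.01 (SE 0.17; limma, adjusted p = 1.5e-08). Nearly all of it sat in 1 peak at chr10:5765746-5765766 on the minus strand, with means of 39.7 CPM in the nuclear and 682 CPM in the cytoplasmic libraries. GLUD1, the mitochondrial glutamate dehydrogenase, had 20.4, 26.4 and 24.1 against 317, 408 and 457 CPM, a difference of -3.92 (SE 0.18; limma, adjusted p = 2.3e-08), and again no nuclear value came near a cytoplasmic one.

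ACTB, the cytoplasmic beta-actin and a textbook HuR target, had 256, 238 and 253 CPM in its 3'UTR in the nuclear libraries and 1869, 2594 and 2693 CPM in the cytoplasmic ones (-3.23, SE 0.13; limma, adjusted p = 1.5e-08). All 5 of its tested peaks were lower in the nuclear libraries, from -3.35 to -1.81. The POTE genes POTEF, POTEI, POTEJ and POTEM, which carry near-copies of the actin sequence, showed sums over their peaks of 0.606 to 3.49 CPM in the nuclear and 55.7 to 73.7 CPM in the cytoplasmic libraries. Their tags cannot be separated with certainty from those of ACTB and ACTG1, so these values are uncertain. ACTG1, gamma-actin, had a 3'UTR difference of -3.85 (7.25 against 103 CPM).

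SCD, IGF2 and SPTBN1 were also lower in the 3'UTR. SCD, which introduces the double bond into newly made fatty acids, had 127, 142 and 124 against 793, 1113 and 1039 CPM (-2.87, SE 0.14; limma, adjusted p = 2.7e-08). IGF2, a fetal growth factor, had 232, 276 and 282 against 1092, 1304 and 1274 CPM (-2.21), and SPTBN1, a spectrin of the membrane skeleton, had 590.2, 576 and 509.8 against 1991, 2324 and 1834 CPM (-1.87). The groups did not overlap in any of these 3 genes, and cytoplasmic library 1 was the lowest cytoplasmic library for SCD and IGF2, but not for SPTBN1. ELAVL1 itself, whose mRNA is bound by its own product, had 17.5, 10.9 and 13.5 against 47.9, 45.8 and 70.6 CPM in its 3'UTR (-1.81, SE 0.24; limma, adjusted p = 7.6e-05).

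**Figure D1:**
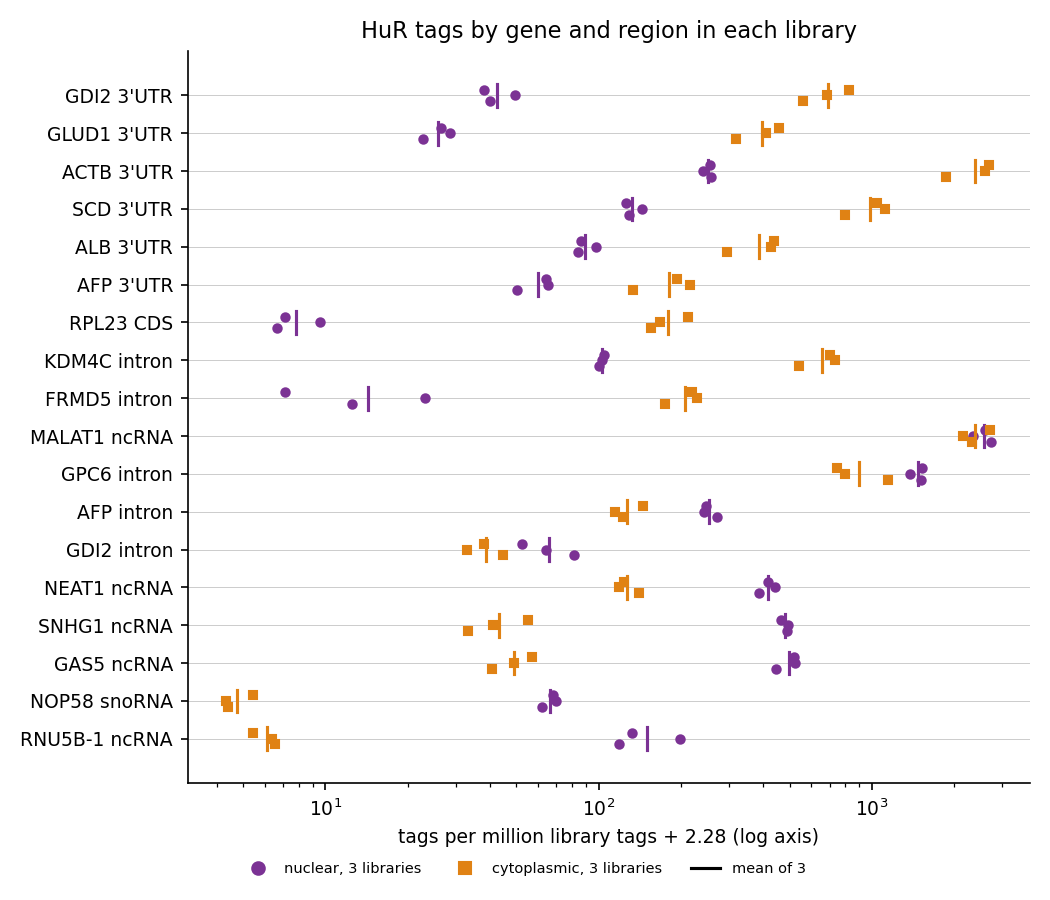
HuR tags of named units in each library, on a log axis of CPM + 2.28; circles are the 3 nuclear and squares the 3 cytoplasmic libraries, and vertical bars are means of 3. The groups are apart in every row shown but MALAT1, whose libraries lie between 2149 and 2739 CPM and overlap.

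The size of the 3'UTR difference was larger in units with more tags. In 3'UTR units of under 20 tags over the 6 libraries the median was -0.45 and 15.8% were lower. From 20 to under 100 tags the median was -1.25, from 100 to under 500 tags -1.93, and in the 188 units of 500 or more tags -2.42, with 186 lower. Introns showed medians of 0.19, 0.54, 0.69 and 0.76 over the same steps. Both the power of the test and the pull of the pseudocount toward 0 depend on the tags, so these steps are a description.

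Only 44 of 6090 3'UTR units were higher in the nuclear libraries, and the 3 with the largest differences sat over small RNA genes. The 3'UTR peaks named RPL13A (3.35), RPL23A (2.45) and TMEM107 (2.12) lay over the snoRNA genes SNORD32A, SNORD4B and SNORD118; of the 44, these 3 were the ones with their highest peak over a RefSeq snoRNA gene. TXNDC11, a thioredoxin-domain protein gene, had 10.2, 6.36 and 5.79 against 1.06, 0 and 0 CPM (1.88, SE 0.37; limma, adjusted p = 0.0019) on 20 nuclear tags and 1 cytoplasmic tag. Of the better covered ones, 4 were chosen here after their values were seen. SRSF5, a splicing factor, had 103, 115 and 97.5 against 42.5, 49.9 and 52.7 CPM (1.09). SRRM2, a scaffold protein of nuclear speckles, had 58.3, 56.4 and 68.6 against 27.7, 25.5 and 42.2 CPM (0.92), and the cyclin gene CCNL2 had 36.4, 29.1 and 26.1 against 11.7, 13.2 and 14.8 CPM (1.07). ZFC3H1, a component of the nuclear exosome pathway, had 35.0, 30.0 and 33.8 against 7.45, 4.07 and 18.98 CPM (1.68). The number of higher 3'UTR units was 22, 18 and 24 without cytoplasmic libraries 1, 2 and 3, and 22, 23 and 24 without nuclear libraries 1, 2 and 3. It was 24 after TMM scaling, 16 with edgeR and 7 with DESeq2.

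Intron differences were smaller than those of the 3'UTR, with a median of 0.48 against -0.98. GPC6, a heparan sulfate proteoglycan gene, had 1514, 1372 and 1521 CPM over its introns in the nuclear libraries and 1144, 794 and 746 CPM in the cytoplasmic ones (0.74, SE 0.14; limma, adjusted p = 0.0015). GPC3, a related proteoglycan expressed in hepatoma cells, had 960.3, 913 and 958 against 686, 484 and 519 CPM (0.76). The groups did not overlap in either gene, although cytoplasmic library 1 of GPC6 lay above the other cytoplasmic libraries. HEATR1, a nucleolar protein of rRNA processing, and NSL1, a kinetochore protein, had the largest intron differences outside snoRNA peaks among those named by rule. HEATR1 had 16.0, 18.2 and 22.2 against 4.25, 2.04 and 2.11 CPM (2.07), and NSL1 35.0, 32.7 and 36.7 against 10.6, 4.07 and 6.33 CPM (2.06). These sums gather many small peaks. The highest intron peaks had nuclear means of 1.90 CPM in HEATR1 and 3.31 CPM in NSL1. Neither peak passed (0.48, limma adjusted p = 0.50, and 0.93, limma adjusted p = 0.20). SNRPB, a core spliceosomal Sm protein gene, reached 3.17 through peaks over SNORD119 (34.2 against 1.74 CPM), and its remaining intron peaks did not pass (0.91, limma adjusted p = 0.052). The intron calls moved by over 1.5 times without 4 of the libraries and by less without cytoplasmic libraries 1 and 3: 1040 were higher without cytoplasmic library 2, 1325 without cytoplasmic library 3, 1125, 1161 and 1209 without nuclear libraries 1, 2 and 3, and 1827 without cytoplasmic library 1. They also fell to 864 after TMM scaling, 863 with edgeR and 602 with DESeq2, and rose to 2457 with scaling to tags in peaks; the median stayed above 0 in each.

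Within single genes the 3'UTR and the introns moved apart. In each library the log2 of the 3'UTR value over the intron value of a gene was taken, a balance in which the scaling of the library cancels apart from the pseudocount, and tested between the fractions in 4796 genes. The balance was lower in the nuclear libraries in 3359 genes (70%) and higher in 10 (0.209%), with a median of -1.56 (quartiles -2.26 and -0.88), and it lay below 0 in 4547. The median gene had a balance of -1.26, -1.28 and -1.32 in the 3 nuclear libraries and of 0, 0.31 and 0.29 in the 3 cytoplasmic ones, so cytoplasmic library 1 lay closest to the nuclear libraries but well away from them. In 792 genes the 3'UTR was lower and the introns higher, each by its own test; in 1655 the 3'UTR alone was lower, in 691 the introns alone were higher, and in 1590 neither passed. The opposite combination, a higher 3'UTR with lower introns, occurred in 0 genes by limma, edgeR or DESeq2, also at unadjusted p-values under 0.05. The counts of the balance were 3315 lower and 14 higher without cytoplasmic library 1. The higher ones numbered 18 with the smaller pseudocount or no filter, 6 with edgeR, and 3 of 2389 genes with at least 20 tags in both regions. The size of the 3'UTR difference had next to no relation to the size of the intron difference across the 4796 genes (Spearman's rank correlation 0.02, a description across genes of the same libraries).

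Sums over a gene hid these opposed changes. Of the 792 genes, 407 were not called by their sum, 199 were lower and 186 higher. ARHGAP5, a GTPase-activating protein gene, shows it: its sum was 768, 766 and 761 against 751, 748 and 877 CPM (-0.05; limma, adjusted p = 0.76), and its regions went apart. Its CDS had 11.7, 10.0 and 14.5 against 90.4, 101 and 133 CPM (-2.94), its 3'UTR 56.8, 47.3 and 64.7 against 205, 226 and 284 CPM (-2.04), and its introns 679, 687 and 654 against 424, 395 and 412 CPM (0.71), each passing the test. GPC3 was of the same kind, with a sum of 1368 against 1509 CPM (-0.13; limma, adjusted p = 0.42), a lower 3'UTR (-1.31) and higher introns (0.76).

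The largest balances belonged to GDI2, HMGN2, PLEKHB2, OSBPL8 and SET. GDI2 had 78.7, 61.8 and 50.2 against 42.5, 30.6 and 35.9 CPM in its introns (0.76, SE 0.21; limma, adjusted p = 0.015), and with the 3'UTR values above its balance differed by -4.77 (SE 0.47). HMGN2, a nucleosome-binding protein, had 71.4, 47.3 and 48.3 against 288, 408 and 413 CPM in the 3'UTR and 10.2, 6.36 and 7.72 against 1.06, 0 and 1.05 CPM in the introns (balance -4.49). OSBPL8, an oxysterol-binding protein of membrane contact sites, had 2.91, 3.64 and 5.79 against 53.2, 66.2 and 103 CPM in the 3'UTR and 67.0, 61.8 and 66.6 against 36.2, 36.7 and 30.6 CPM in the introns (balance -4.43). PLEKHB2 and SET, the latter a histone chaperone and phosphatase inhibitor, had balances of -4.45 and -4.39. None of these 5 genes had overlapping groups in the balance.

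**Figure D2:**
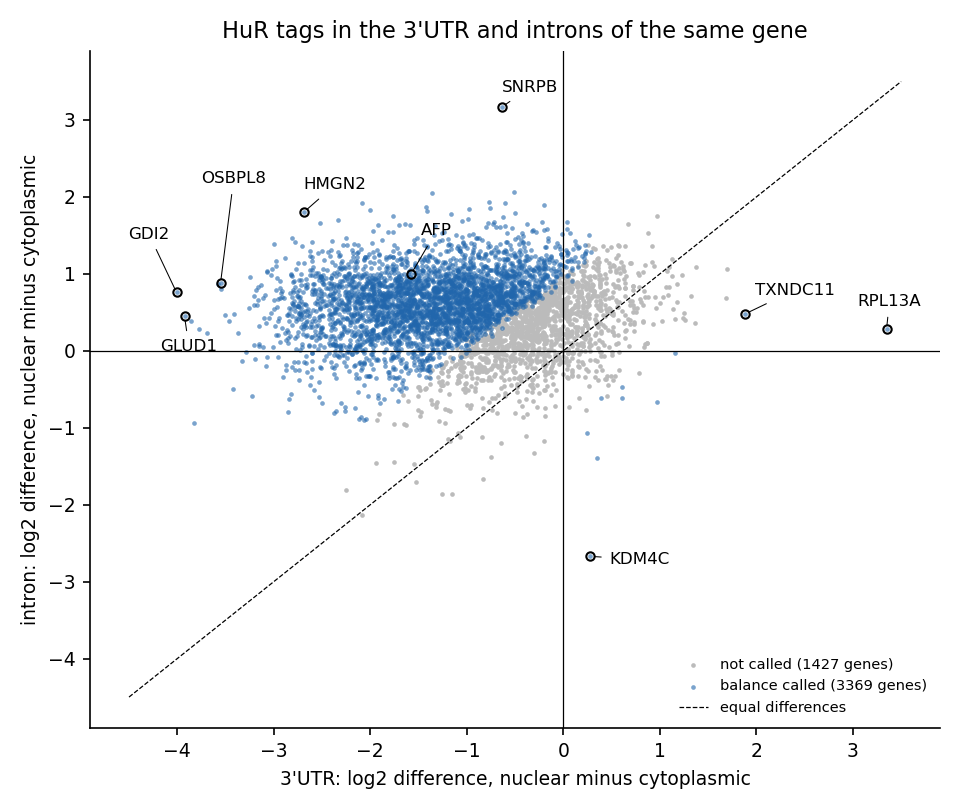
Each point is 1 of 4796 genes, with the log2 difference (nuclear minus cytoplasmic) of its 3'UTR tags on the horizontal axis and of its intron tags on the vertical axis; blue points passed the test of the balance (3369 genes) and the dashed line marks equal differences. Most blue points lie to the left of 0 and above 0, and KDM4C, TXNDC11 and RPL13A lie on the other side of the line.

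Of the 10 genes with a higher balance, 9 are named here. In RPL13A (3.07) the highest 3'UTR peak lay over a snoRNA gene. In KDM4C, a histone demethylase gene (2.95), the introns differed, with 97.6, 101 and 102 CPM in the nuclear and 539, 728 and 702 CPM in the cytoplasmic libraries (-2.67, SE 0.14; limma, adjusted p = 3.6e-08). Of these, 1 peak at chr9:6835711-6835731 on the plus strand held 61.2 to 72.4 CPM in the nuclear and 484 to 664 CPM in the cytoplasmic libraries, and no RefSeq pseudogene covers it. RRP36, NDUFB4, TXNDC11, BTBD8, TCP10L, RMND1 and DEPDC5 had balances of 1.01 to 1.74; RRP36 did not pass with edgeR (adjusted p = 0.071), and TXNDC11 did not with the larger pseudocount (limma adjusted p = 0.12).

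Coding and 5'UTR peaks were fewer and went in either direction. In the CDS 55 of 890 units were higher (6.18%) and 77 lower (8.65%), with a median of -0.03; in the 5'UTR 40 of 721 were higher (5.55%) and 43 lower (5.96%), with a median of -0.04. These medians turn to 0.00 and 0.04 with scaling to tags in peaks, that of the CDS to 0.03 when tags are required in all 6 libraries, and that of the 5'UTR to 0.02 without cytoplasmic library 2. Leaving out any 1 library other than cytoplasmic library 1 took the higher 5'UTR units to between 19 and 24 and the higher CDS units to between 21 and 35; without cytoplasmic library 1 they numbered 25 and 30. The lower units moved less in the 5'UTR, to 29 (without cytoplasmic library 2 or 3) at the fewest, and to 36 in the CDS (without nuclear library 1). TMM scaling gave 25 higher and 72 lower in the 5'UTR and 39 and 104 in the CDS; DESeq2 gave 8 and 29, and 8 and 34.

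RPL23, a protein of the large ribosomal subunit, had the lowest CDS value of all, 4.37, 7.27 and 4.83 against 153, 166 and 211 CPM (-4.53, SE 0.22; limma, adjusted p = 2.7e-08). Its 5'UTR was lower too (-1.55), while its 3'UTR had 7.29, 9.09 and 19.3 against 3.19, 2.04 and 7.38 CPM (1.12), with overlapping groups. Secreted liver proteins were bound along the coding sequence: AFP had 269.6, 291 and 234 against 648, 1043 and 821 CPM in its CDS (-1.63) and APOB 36.4, 40.0 and 29.9 against 122, 209 and 187 CPM (-2.19). On the other side, the transcriptional regulator FUBP1 had 8.74, 19.1 and 13.5 against 2.13, 1.02 and 1.05 CPM in its CDS (2.09, SE 0.36; limma, adjusted p = 0.00065). In the 5'UTR, MATR3, a nuclear matrix protein, had 0, 2.73 and 1.93 against 20.2, 25.5 and 33.7 CPM (-2.95), and PTP4A2, a phosphatase, had 20.4, 16.4 and 11.6 against 80.8, 119 and 116 CPM (-2.56). HNRNPU went apart by region, with a 5'UTR of 74.3, 65.5 and 66.6 against 36.2, 31.6 and 33.7 CPM (0.98) and a 3'UTR of 162, 164 and 137 against 862, 1051 and 1252 CPM (-2.74). Of the latter, 1 peak over the RefSeq snoRNA gene SNORA100 held means of 117 against 870.1 CPM, and without peaks over snoRNA genes and pseudogenes the sum over HNRNPU moved from -2.11 to -0.81 (limma, adjusted p = 0.00016).

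Sequence could be read for peaks that fell inside the RefSeq promoter windows (GRCh38.p14, 250 bases before to 50 after a gene start), which is the build named in the submitters' processing notes. Of 330 such peaks with tags, 182 were tested, 7 were lower and 3 higher in the nuclear libraries. All 10 are shown because they let the bound letters be seen beside the values. Each line gives the bases from the listed start to the listed end, both included (21 bases, since the notes do not say whether starts count from 0), on the transcript strand, and capitals mark runs of at least 3 T.
C6orf62, 5'UTR, chr6:24719141-24719161: TTTTTTggaaagcaaggatca
C6orf62, 5'UTR, chr6:24719328-24719348: caccaagtgtaatcaataaca
PSMB4, 5'UTR, chr1:151399570-151399590: tctgctaccgtgactaagatg
RPS25, 5'UTR, chr11:119018313-119018333: gacatcttgacgaggctgcgg
H3C4, 5'UTR, chr6:26197257-26197277: tcaTTTagcagggTTTagaag
H2BC6, 5'UTR, chr6:26183767-26183787: TTTcctaactgcagaacagca
H2BC14, 5'UTR, chr6:27815036-27815056: TTTccaccatgcctgaaccag
ZBTB20, intron, chr3:114624324-114624344: tgTTTaTTTataagacaTTTc
UBAP2 (SNORD121B), chr9:33934319-33934339: tctgagttgtatgtgtggaca
RPL17-C18orf32 (SNORD58B), chr18:49491680-49491700: ttggattaataatgaaaacaa

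The first 7 of these were lower in the nuclear libraries. The peak of C6orf62 that opens with 6 T had 8.74, 9.09 and 7.72 against 57.4, 70.3 and 63.3 CPM (-2.61), and its other peak, with no run of T, had 2.91, 6.36 and 0.966 against 19.1, 22.4 and 15.8 CPM (-2.01). PSMB4, a proteasome subunit, had 4.37, 10.0 and 6.76 against 30.8, 41.8 and 34.8 CPM (-2.06) and RPS25, of the small ribosomal subunit, 2.91, 5.46 and 2.90 against 14.9, 23.4 and 31.6 CPM (-2.06). The 3 histone genes, whose mRNAs lack a poly(A) tail, had -1.93 (H3C4), -1.87 (H2BC6) and -1.79 (H2BC14), with nuclear libraries at 1.46 to 9.66 CPM and cytoplasmic libraries at 9.57 to 42.2 CPM over the 3. Of the 3 higher peaks, the ZBTB20 intron, with 11 T in 21 bases, had 11.7, 8.18 and 8.69 against 1.06, 1.02 and 2.11 CPM (1.68); the other two lie over snoRNA genes. The motif TTTTT, searched on the transcript strand only, was found in 32 of the 182 tested peaks (17.6%), in 1 of the 7 lower and 0 of the 3 higher. It was found in 1.66% of the last 21 bases of 35116 promoter windows. Those bases are a fixed place after the gene start, with a median of 4 T, whereas the peaks lay anywhere in the windows. The shares are therefore not matched in place or base content. The median number of T was 5 of 21 in the lower, 8 in the higher and 7 in all tested peaks, numbers too small to compare.

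Among noncoding RNAs 233 of 1440 units were higher (16.2%) and 80 lower (5.56%), and most of the well-known nuclear RNAs were on the higher and cytoplasmic RNAs on the lower side. NEAT1, the scaffold of paraspeckles, had 385, 440.0 and 414 against 138, 116 and 121 CPM (1.71, SE 0.13; limma, adjusted p = 5.9e-07), and 11 of its 56 tested peaks were higher. FTX, a nuclear RNA of the X-inactivation centre, had 372, 320.0 and 333 against 183, 164 and 149 CPM (1.04). MALAT1, a nuclear speckle RNA, did not pass the test, and its groups overlapped: 2739, 2347 and 2597 against 2324, 2149 and 2708 CPM (0.10, SE 0.10; limma, adjusted p = 0.51), with 1 of 22 tested peaks higher and peak values from -0.66 to 1.36. TUG1, listed as nuclear, was lower in its 3'UTR-annotated peaks, 18.9, 17.3 and 16.4 against 68.1, 90.7 and 92.8 CPM (-2.11). NORAD, which sequesters Pumilio proteins in the cytoplasm, had 29.1, 30.0 and 25.1 against 112, 158 and 154 CPM (-2.23). OIP5-AS1, also known as cyrano, had 13.1, 20.002 and 23.2 against 33.0, 37.7 and 39.0 CPM (-0.91), and DANCR did not pass (0.12; limma, adjusted p = 0.78). The higher ncRNA units numbered 126 without cytoplasmic library 2, and 139, 138 and 155 without nuclear libraries 1, 2 and 3; they numbered 118 after TMM scaling, 109 with edgeR and 88 with DESeq2. The lower ones numbered 50 without cytoplasmic library 2, 51 without nuclear library 3 and 52 with DESeq2.

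RNU5B-1, the U5 RNA of the spliceosome, had the largest difference toward the nuclear libraries of the 10637 genes tested, 117, 196 and 130.4 against 4.25, 4.07 and 3.16 CPM (4.59, SE 0.24; limma, adjusted p = 3.2e-08). RNU4-2, the U4 RNA, had 40.8, 30.9 and 24.1 against 2.13, 7.13 and 4.22 CPM (2.38). RMRP, the RNA of a nucleolar endonuclease whose peaks the table places in the class downstream of genes, had 35.0, 20.9 and 19.3 against 2.13, 7.13 and 6.33 CPM (1.90). Of 81 snRNA names tested 17 were higher (median 0.25), against 13.8% of all genes; the count fell to between 10 and 14 with 1 library left out, near that share, with the moves over 1.5 times coming without nuclear library 2 or cytoplasmic libraries 2 or 3. Near-identical snRNA copies can share tags. The name Y_RNA, shared by many loci of the small cytoplasmic Y RNAs, had 11.7, 14.5 and 11.6 against 123, 178 and 174 CPM in peaks of the class Other (-3.42), so it lay on the cytoplasmic side. Mitochondrially encoded RNAs, made and kept in mitochondria, were lower in 12 of 28 genes (median -0.58), against 18.3% of all genes. MT-RNR2, the large mitochondrial rRNA, had 303, 370.0 and 339 against 729, 979.8 and 740.2 CPM (-1.26) and MT-RNR1 37.9, 47.3 and 46.3 against 52.1, 78.4 and 63.3 CPM (-0.52). The count of 12 fell to between 3 and 12 with 1 library left out, by over 1.5 times without any library other than cytoplasmic library 1.

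SnoRNA genes, which guide the modification of rRNA in the nucleolus and mostly sit in introns of host genes, were higher in the nuclear libraries nearly throughout. Of 68 units of the class snoRNA 58 were higher (85.3%), with a median of 1.98; 0 were lower by limma, edgeR or DESeq2, also at an unadjusted p under 0.05. NOP58, itself a core protein of box C/D snoRNA particles, had 59.7, 67.3 and 65.7 against 2.13, 2.04 and 3.16 CPM there (3.82, SE 0.24; limma, adjusted p = 1.2e-07). Single peaks were tested as well: 833 of 157168 (0.53%) were higher and 3604 (2.29%) lower. Without cytoplasmic library 2 none passed limma's adjusted threshold, although 29268 had an unadjusted p under 0.05. Without nuclear library 1 the counts were 4080 and 2358, edgeR gave 124 and 1708, and DESeq2 502 and 3269. Peaks over RefSeq snoRNA genes were 197 of the tested peaks (0.125%), 118 of the 833 higher ones (14.2%) and 7 of the 3604 lower ones, with a median of 1.89 against 0.15 for all other peaks. The largest log2 differences among them were at SNORD79 in GAS5 (5.12, 115 against 1.05 CPM), SNORD26 in SNHG1 (4.77, 85.8 against 1.03 CPM) and SNORD81 in GAS5 (4.14, 52.9 against 1.06 CPM), each CPM a mean of 3 libraries.

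Within host genes the snoRNA peaks and the other peaks could be set side by side. In RPL13A the peaks over snoRNA genes had 170.5, 182 and 186 against 10.6, 12.2 and 13.7 CPM and the remaining peak 2.91, 0 and 2.90 against 4.25, 0 and 0 CPM. In NCL, the nucleolar protein nucleolin and a known HuR target, they pointed opposite ways: 32.1, 42.7 and 47.3 against 4.25, 2.04 and 3.16 CPM over snoRNA genes, and 39.3, 24.5 and 43.5 against 134, 262 and 206 CPM elsewhere. EEF2, the translation elongation factor, had 37.9, 37.3 and 43.5 against 5.32, 8.15 and 10.5 CPM over its snoRNA and 2.91, 1.82 and 1.93 against 8.51, 10.2 and 21.1 CPM elsewhere. EIF4A1, the helicase of translation initiation, had means of 5.68 against 0.694 CPM and 3.62 against 24.3 CPM. The noncoding hosts GAS5 and SNHG1 stayed higher outside the snoRNA and pseudogene peaks (0.87, limma adjusted p = 0.0082, and 0.76, limma adjusted p = 0.015), against 3.35 and 3.52 with them. RPL13A (0.28, adjusted p = 0.66), RPS12 (0.40, adjusted p = 0.44) and ZFAS1 (0.30, adjusted p = 0.56) did not pass in limma without those peaks.

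**Figure D3:**
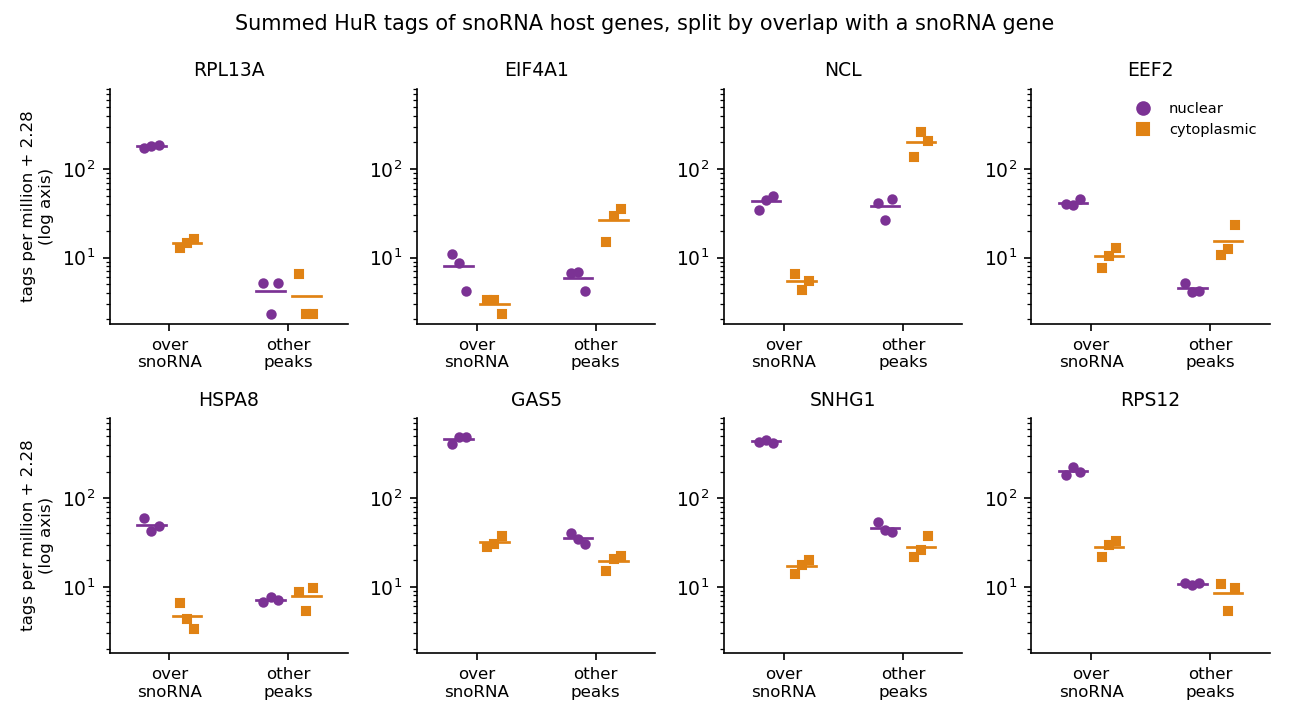
Summed HuR tags of 8 snoRNA host genes in each library (CPM + 2.28, log axis), for peaks over a RefSeq snoRNA gene and for the other peaks of the gene; circles are nuclear and squares cytoplasmic libraries, and bars are means of 3. Over snoRNA genes the nuclear libraries are higher in all 8 genes, while the other peaks of NCL, EEF2 and EIF4A1 are higher in the cytoplasmic libraries.

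Ribosomal protein genes, many of which host snoRNAs, were counted with and without such peaks. The 24 with a peak over a snoRNA gene had 11 higher and 2 lower sums (median 0.65), against 13.8% higher and 18.3% lower over all genes. With peaks over snoRNA genes and pseudogenes left out, 18 could be tested, with 5 lower, 0 higher (1 at an unadjusted p under 0.05 in limma) and a median of -0.25. The 47 without such a peak had 2 higher and 10 lower of 45 tested (median -0.06). The last of these lower counts is near the share of all genes. In the list of all ribosomal protein genes the snoRNA units were higher in 16 of 19 (median 1.95), near the 85.3% of all snoRNA units, the 3'UTR units were higher in 4 and lower in 13 of 41 (median -0.68), and the median of the 47 intron units was 0.25. RPL15, of the large subunit, was among the lower 3'UTR units, with means of 7.19 against 56.6 CPM. The median over the sums changed sign, from 0.18 to -0.10, when snoRNA and pseudogene peaks were left out. Without cytoplasmic library 2 the lower sums numbered 7 in place of 12, and the higher 3'UTR units fell from 4 to as few as 2 when a nuclear library or cytoplasmic library 1 was left out. Among host lncRNAs (GAS5 and the SNHG genes) 6 were higher and 2 lower of 21 (median 0.54). Of snoRNA and scaRNA genes annotated in their own right 15 of 19 were higher (median 2.07). SNORD3A, the U3 RNA, had 48.1, 34.5 and 51.2 against 11.7, 15.3 and 3.16 CPM (2.07); its near-identical copies can share its tags.

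Part of the introns that went against the rest held a copy of another gene. FRMD5 had the lowest intron value, 10.2, 20.9 and 4.83 against 172, 226 and 217 CPM (-4.02, SE 0.32; limma, adjusted p = 8.1e-07), from peaks over the beta-actin pseudogene ACTBP7. CEP112, a centrosomal protein gene, had 11.7, 18.2 and 23.2 against 104, 153 and 173 CPM (-2.88), with its highest peak over the pseudogene LOC107984972; without pseudogene peaks its introns turned to 0.72 (limma adjusted p = 0.17). Peaks over ACTBP4 in FNIP1 (2.36 against 61.1 CPM), SUMO2P11 in SHROOM3 (2.64 against 53.2 CPM) and KRT8P42 in SGK1 (4.90 against 68.3 CPM) were of the same kind, and were chosen after their values were seen. Of 86709 tested intron peaks 839 lay over a RefSeq pseudogene (0.968%), against 46 of the 120 lower ones (38.3%) and 3 of the 393 higher ones. Among the 137 lower intron units 39 (28.5%) had their highest peak there, against 2.83% of all tested intron units. Peaks without annotation showed it too, with 173 of 372 lower ones (46.5%) over pseudogenes, against 1073 of all 15953 tested (6.73%). PTMAP5, a prothymosin pseudogene, had 17.5, 10.9 and 5.79 against 86.2, 94.7 and 125 CPM (-3.01), and RPS11P5 (-2.20). Tags of a pseudogene and of its spliced parent gene cannot be told apart with certainty in these counts. MRPS22 and C5orf34 (-2.90 and -2.81) were the other intron units with the lowest values, on 6 and 9 nuclear tags.

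**Figure D4:**
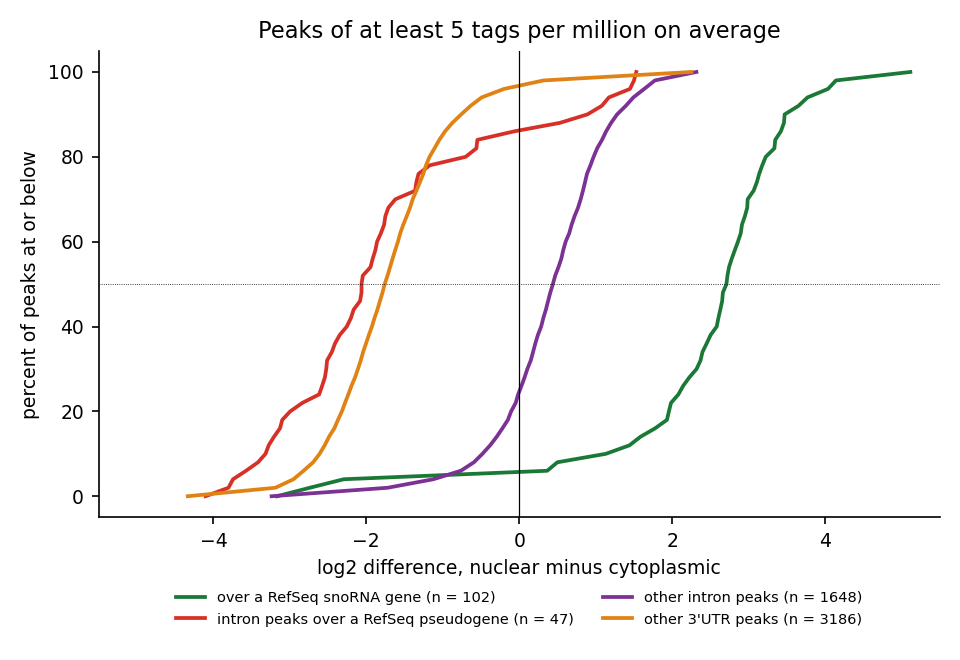
Cumulative percent of peaks (vertical axis) at or below a log2 difference, nuclear minus cytoplasmic (horizontal axis), for peaks of at least 5 CPM on average over the 6 libraries. The medians, where the curves cross the dotted line, are 2.71 for peaks over snoRNA genes, 0.44 for other intron peaks, -1.76 for other 3'UTR peaks and -2.06 for intron peaks over pseudogenes (47 peaks).

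The plot of cumulative percent holds only peaks of at least 5 CPM; over all tested peaks the medians were 1.89 over snoRNA genes, 0.21 in introns, -0.59 in the 3'UTR and 0.03 for the 839 intron peaks over pseudogenes, of which 790 were not called. Of all called 3'UTR peaks 2858 were lower and 27 higher, a share that the counts per gene reflect. Of 598 genes with several called 3'UTR peaks, 593 had all of them lower, and IL6ST, MKLN1, MSI2, QKI and SRRM2 had both; in MSI2 1 was higher and 7 lower, and in QKI, a splicing regulator, 1 was higher and 5 lower. Peaks spread over a whole gene went in both directions in some genes: AFP had 4 higher and 4 lower of 50 tested, from -2.20 to 1.73, HNRNPH1 had 2 higher and 4 lower of 25, and APOB 1 higher and 7 lower of 59.

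Gene lists were read beside all units of their region: in the 3'UTR 49.4% were lower (median -0.98), and in introns 25.1% were higher (median 0.48). The lists were not matched for tags per unit, with which the medians of both regions changed. The cytoskeleton genes had the lowest 3'UTR median of the lists with at least 10 tested 3'UTR units, -2.004, with 12 of 16 lower. TPM3, a tropomyosin (45.3 against 476 CPM), ACTR2, of the Arp2/3 complex that branches actin (19.6 against 202 CPM), and TUBB, a beta-tubulin (9.95 against 86.6 CPM) were among them, and 2 of 12 intron units were higher. Hepatocyte plasma protein genes were lower in 8 of 10 3'UTR units (median -1.73) and 7 of 11 CDS units (median -1.04, against 8.65% lower of all CDS units), higher in 5 of 12 intron units (median 0.77), and lower in the balance in 9 of 9 genes, against 70% of all. ALB, serum albumin, had 81.6, 95.5 and 84.0 against 293, 427 and 434 CPM in the 3'UTR (-2.10) and 114, 135 and 134 against 64.9, 61.1 and 89.6 CPM in introns (0.83). AFP, the fetal counterpart, had 48.1, 62.7 and 61.8 against 131, 213 and 192 CPM (-1.58) and 269.6, 241 and 244 against 120.2, 112 and 143 CPM (1.00). Without cytoplasmic library 2 the plasma protein counts were 3 in introns and 4 in the CDS.

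Genes of RNA-binding proteins, which include HuR's partners and competitors, were mostly lower in the 3'UTR. The HNRNP and SRSF splicing factor genes had 27 of 37 lower and SRSF5 higher (median -1.70), against 49.4% lower of all 3'UTR units. Of their intron units 6 of 28 were higher (median 0.55), near the 25.1% of all intron units. HNRNPH1 had 418, 403 and 348 against 878, 1156 and 1205 CPM in its 3'UTR (-1.46) and 220.0, 208 and 229 against 112, 87.6 and 117 CPM in introns (1.05). HNRNPL, a splicing repressor, had 117, 112 and 78.2 against 357, 587 and 640.1 CPM in its 3'UTR (-2.32). Regulators of mRNA stability and translation were lower in 17 of 19 3'UTR units (median -1.60) and higher in 10 of 15 intron units (median 0.70). PCBP2, a poly(C)-binding protein, had 122, 111 and 86.9 against 612, 775 and 884 CPM in its 3'UTR, and ZFP36L2, which binds AU-rich elements and promotes decay, had 99.1, 81.8 and 73.4 against 208, 249 and 254 CPM (-1.46). Known HuR targets, a list drawn from textbook examples, were lower in 13 of 18 3'UTR units (median -1.51). CCND1, the G1 cyclin, had 26.2, 30.9 and 20.3 against 114, 124 and 197 CPM (-2.37), HIF1A 6.48 against 32.3 CPM and MYC 3.96 against 11.5 CPM. The intron counts of the splicing factor and regulator lists fell to 3 and 4 with 1 library left out, by over 1.5 times without nuclear libraries 1 or 2 or cytoplasmic libraries 2 or 3, and to 1 and 3 after TMM scaling.

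Translation, protein folding and protein turnover genes had 3'UTR medians of -1.17 to -1.38. Translation factor genes were lower in 18 of 29 3'UTR units (median -1.38), and higher in 8 of 32 intron units, the share of all introns (25.1%), and 6 of 7 snoRNA units, near the share of all snoRNA units (85.3%). EIF2S3, a subunit of the factor that brings the initiator tRNA, had 53.9, 42.7 and 53.1 against 215, 301 and 278 CPM in its 3'UTR, EIF4G2 0.322 against 19.5 CPM, and EIF4G3, an initiation scaffold, had 391, 365 and 402 against 232, 164 and 182 CPM in introns. Chaperone genes were lower in 17 of 27 (median -1.30): CANX, calnexin of the endoplasmic reticulum, had 141, 131 and 134 against 733, 942 and 874 CPM and CALR, calreticulin, 42.3, 39.1 and 50.2 against 257, 400.3 and 304 CPM. HSPA8, the constitutive HSP70, had a 5'UTR peak over SNORD14C with 27.7, 22.7 and 22.2 against 1.06, 1.02 and 1.05 CPM (2.99). Proteasome subunit genes were lower in 12 of 22 (median -1.17) and RAB GTPase genes in 18 of 26 (median -1.37), with introns higher in 7 of 26 and 7 of 31. The proteasome 3'UTR count and both intron counts are near the shares of all units, 49.4% and 25.1%. PSMD11 had 26.1 against 225 CPM in its 3'UTR, RAB5A, of early endosomes, 7.14 against 61.6 CPM, and RAB28 162, 147 and 188 against 84.0, 66.2 and 72.8 CPM in introns (1.13). The intron counts of these lists moved most. Chaperone genes had 7 of 26 higher, but 0 to 4 when any 1 of the 6 libraries was left out. Proteasome genes had 2 to 6, RAB genes 4 to 7 and translation factor genes 5 to 7, moves over 1.5 times coming without nuclear libraries 1 or 2 or cytoplasmic libraries 2 or 3. After TMM scaling the intron counts were 5 for translation factors, 1 for chaperones, 2 for the proteasome and 3 for RAB genes.

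Lipid synthesis genes, active in liver cells, were lower in 13 of 18 3'UTR units (median -1.44) and higher in 9 of 21 intron units (median 0.56). HMGCS1, an early enzyme of cholesterol synthesis, had 97.6, 93.6 and 85.0 against 401, 564 and 573 CPM in its 3'UTR (-2.43) and 213, 205 and 190.2 against 154, 139 and 128 CPM in introns (0.53). ACACA, acetyl-CoA carboxylase, had intron values of 326, 283 and 312 against 236, 197 and 198 CPM (0.54). The intron count of 9 fell to 4 at the fewest with 1 library left out, with moves over 1.5 times without nuclear libraries 1 or 2, and to 3 after TMM scaling.

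**Figure D5:**
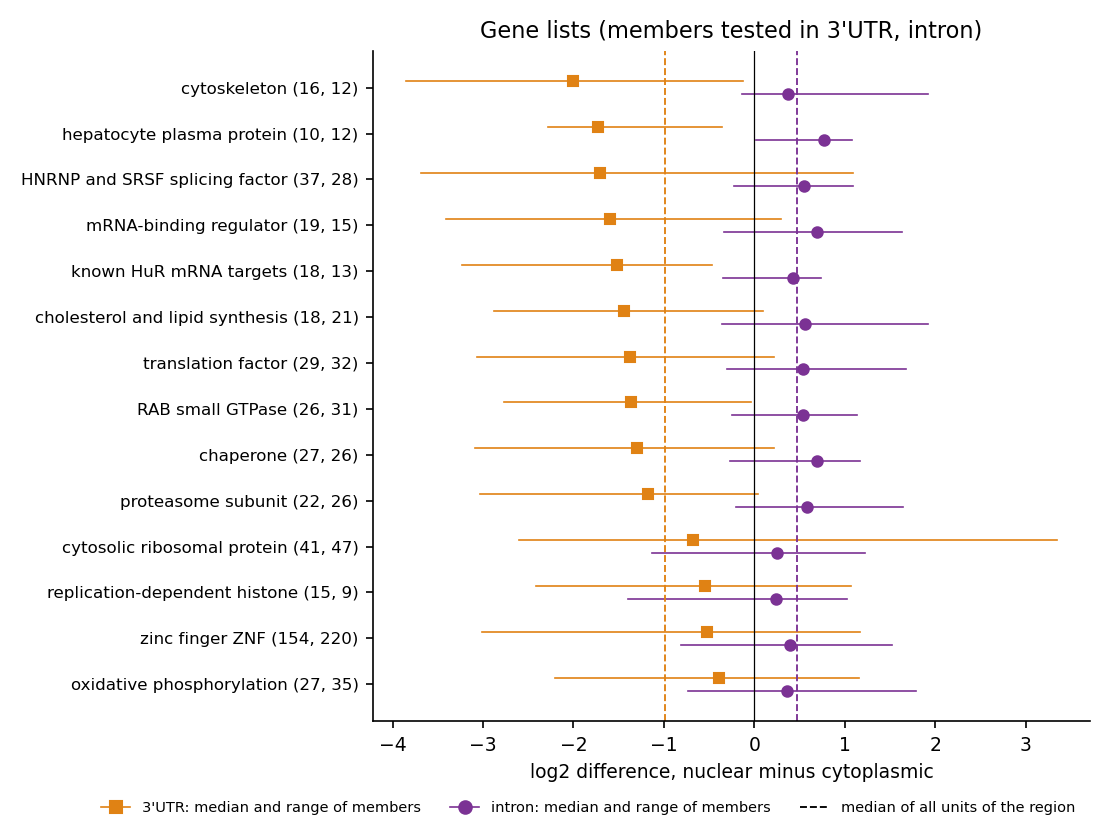
Median (symbol) and range (line) of the log2 difference, nuclear minus cytoplasmic, over the tested members of each gene list, with squares for 3'UTR units and circles for intron units; numbers in parentheses are members tested in each region, and dashed lines are the medians of all units of the region (-0.98 and 0.48). The 3'UTR medians run from -2.004 in cytoskeleton genes to -0.39 in oxidative phosphorylation genes. Lists are not matched for tags per unit.

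Oxidative phosphorylation, ZNF and histone genes had 3'UTR medians closer to 0 than -0.98. The median of all 3'UTR units itself went from -0.45 at under 20 tags to -2.42 at 500 or more tags. The part of tags per unit in the order of the lists was not tested. Oxidative phosphorylation genes were lower in 8 of 27 3'UTR units and higher in 2, NDUFB4 among them (median -0.39); COX7A2L, a factor of respiratory supercomplexes, had 9.87 against 53.6 CPM, and 4 of 35 intron units were higher. Zinc finger ZNF genes, mostly transcriptional repressors, were lower in 45 of 154 3'UTR units and higher in 2, ZNF519 and ZNF430 (median -0.52), higher in 36 of 220 intron units (median 0.40), and lower in the balance in 56 of 117, against 70% of all genes tested for it. ZNF91, a repressor of retroelements, had 194, 159 and 190.2 against 101, 94.7 and 108 CPM in introns (0.82). Replication-dependent histone genes were lower in 4 of 15 3'UTR units and higher in H2BC21 (median -0.54), and lower in 3 of 21 5'UTR units (5.96% of all 5'UTR units were lower), those shown above by sequence. Without cytoplasmic library 2 the lower counts were 5 for oxidative phosphorylation and 24 for ZNF genes, the latter moving over 1.5 times also without nuclear library 2 or cytoplasmic library 3. Lower histone 3'UTR units numbered 2 at the fewest, moving over 1.5 times without nuclear libraries 1 or 3 or cytoplasmic libraries 2 or 3, and without nuclear library 1 or cytoplasmic library 2 the ZNF intron count moved over 1.5 times, its lowest being 21. The 2 higher ZNF 3'UTR units fell to as few as 0, moving over 1.5 times without any library other than nuclear library 2, and the call of H2BC21 was lost without nuclear library 2 or cytoplasmic libraries 1 or 2. The oxidative phosphorylation counts ran from 1 to 3 for higher introns and from 0 to 1 for higher 3'UTR units with 1 library left out. After TMM scaling the ZNF intron count was 18 and that of oxidative phosphorylation 1. Of the other lists, nuclear lncRNA genes had 4 higher and 1 lower (TUG1) of 6, and cytoplasmic lncRNA genes 2 lower of 3 (1 without cytoplasmic library 2). Over all genes 13.8% were higher and 18.3% lower. No 7SL gene passed the filter.

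The genes with the most tags in each fraction, whose sums are not per length and so are not ranked against each other, were MALAT1, LINC02476, GPC6, GPC3 and MIR3171HG in the nuclear libraries and ACTB, MALAT1, SPTBN1, GPC3 and LINC02476 in the cytoplasmic ones. LINC02476, a long intergenic RNA, had 2372, 2387 and 2411 CPM in the nuclear and 1591, 1217 and 1186 CPM in the cytoplasmic libraries (0.86, SE 0.11; limma, adjusted p = 3.2e-05). MIR3171HG, a microRNA host transcript, had 1258, 1223 and 1263 against 787, 617 and 565 CPM (0.94). SPTBN1 was lower by its sum (-1.52) and had introns of 199.6, 188 and 209 against 188, 124 and 137 CPM that did not pass (0.42; limma, adjusted p = 0.065).

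The rule also named units of the smaller classes. PPIG and GSE1 were higher in peaks of the class Other (2.32 and 2.25), and MLIP was lower there (-3.16). In transposable elements PARD3, a polarity protein gene, had 14.6, 19.1 and 15.4 against 5.32, 2.04 and 1.05 CPM (1.95), and NCOA3 had 4.37, 7.27 and 4.83 against 0, 0 and 0 CPM. NHSL2 and MRPS30 were lower downstream of their ends (-1.97 and -1.75), and THSD4-AS1 was lower among noncoding RNAs (0.644 against 21.2 CPM).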

How the data were processed

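HuR CLIP-seq tags were analysed in the 6 libraries of the nuclear and cytoplasmic fractions of mock-treated Huh-7.5 cells, 3 per group, taken from the authors' combined peak coverage table. The deposited values are a signal: coverage of each peak divided by a library total, and every value came back as whole tags (100% within 0.01). Per the submitters' processing notes, Bowtie2, SAMtools, bedtools and HOMER and the build GRCh38.p14 were used, with no versions or settings given in the sources used here; peaks are a single list for all libraries. Here values were scaled to CPM, repeated lines were dropped and peaks summed per gene and class. Differences were tested on log2(CPM + 2.28), the pseudocount being the median worth of 1 tag over the 58 libraries, in units with tags in at least 3 of the 6 libraries, with limma 3.58.1 (lmFit, eBayes with trend) in R 4.3.3 and Benjamini-Hochberg adjustment over all units of a test; such differences understate the change of units with few tags. The count tests of edgeR 4.0.16 and DESeq2 1.42.0 on the recovered tags, other pseudocounts, filters and scalings, a replicate block, each library left out and peaks over RefSeq snoRNA genes and pseudogenes left out were alternatives, the last chosen after seeing the data. Scripts were tested on simulated data.

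Units were named by rule: the largest differences without overlap in each test (6 per direction for genes, 4 for 3'UTR and intron units, 2 for other classes, 5 for balances), the 5 genes with the most tags per group and the 3 most covered members of each list; exceptions are said to be chosen after their values were seen or are list members that passed. Members, lists and rules were chosen with earlier results of these data known. Some genes picked by the rule, 1 of them on the Y chromosome, are not reported here. SnoRNA and pseudogene overlaps came from the RefSeq gene table of GRCh38.p14 (1199 snoRNA genes, 16882 pseudogenes), the build of the files. The floors cover counting error only, and each SE is limma's, from the spread between libraries.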

Additional observations from a re-analysis of the deposited data

How the results depend on the processing

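Higher units of gene and class numbered 1306 after TMM scaling, 1211 with edgeR and 793 with DESeq2, and higher genes 809 with DESeq2. Higher balances numbered 18 with a pseudocount 4 times smaller, 18 with no filter, 4 with tags in all 6 libraries, 6 with edgeR and 3 with at least 20 tags in both regions; lower ones 2078 and 2129 in the all-libraries and 20-tag settings, which tested 2424 and 2389 genes in place of 4796. Higher peaks numbered 487 with the smaller pseudocount, 1621 with no filter, 1336 with tags in all 6 libraries, 3986 after TMM scaling, 124 with edgeR and 502 with DESeq2, and lower peaks 5970 after TMM scaling and 1708 with edgeR. Apart from the smaller sets of genes tested, the cause was not tested. With 1 library left out, higher and lower units ranged from 1418 to 2396 and 2338 to 3219, genes from 880 to 1383 and 1438 to 1855, balances from 8 to 14 and 2980 to 3315, and peaks from 0 to 4080 and 0 to 2358. The peaks moved most: 68 higher and 748 lower without nuclear library 2, 85 and 980 without nuclear library 3, 231 and 1944 without cytoplasmic library 1, and 155 and 1201 without cytoplasmic library 3. Signs turned in the CEP112 introns (-2.88 to 0.72, limma adjusted p = 0.17) and in the medians of gene sums of ribosomal protein genes (0.18 to -0.10) and translation factor genes (0.20 to -0.15) when peaks over snoRNA genes and pseudogenes were left out, which removes the peaks concerned, and in the translation factor median with tags in all 6 libraries (-0.17), which leaves fewer genes. Scaling to tags in peaks turned the cholesterol and lipid list's gene median from -0.04 to 0.09, and the CDS medians of ribosomal protein (-0.01 to 0.04) and splicing factor genes (-0.02 to 0.03). Of 2824 comparisons of named units, 2772 kept their direction and side of the threshold, 48 lost the call, 3 gained it and 1 turned its sign. With the replicate block 5896 units, 3366 genes, 3370 balances and 3983 peaks were called. Deviations of same-numbered libraries correlated at 0.00144, 0.0190 and 0.0129, and those of differently numbered libraries at -0.0171 to 0.00359. The nuclear libraries differed little more than tag counting gives, so such small correlations cannot decide whether the libraries were paired. Alternatives on the peaks' own sequence need a genome and were not run. Depth limits single peaks: 1 tag was worth 0.909 to 1.46 CPM, and an exact permutation test of 3 against 3 libraries cannot go below 0.1.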

Other observations

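Single peaks in exons, outside snoRNA genes, could also be higher in the nuclear libraries. SRRM2 had a 3'UTR peak of 51.0, 49.1 and 54.1 CPM in the nuclear libraries against 8.51, 8.15 and 14.8 CPM in the cytoplasmic ones (log2 difference 2.11; limma, adjusted p = 0.0032). NSD2, a histone methyltransferase, had a 3'UTR peak of 26.2, 36.4 and 28.0 against 7.45, 3.06 and 7.38 CPM (2.02), and QKI, a splicing regulator, a 3'UTR peak at chr6:163570679-163570699 of 23.3, 20.002 and 24.1 against 5.32, 5.09 and 3.16 CPM (1.87). In these 3 genes every nuclear library lay above every cytoplasmic one. Other exonic peaks among the 12 with the largest differences had nuclear means under 15 CPM. They lay in the 3'UTRs of ANKRD26 (10.1 against 0.351 CPM), DTNA (7.86 against 0.351 CPM) and TXNDC11 (7.45 against 0.355 CPM) and in the CDS of FLVCR1 (11.2 against 0.691 CPM), FUBP1 (9.83 against 0.351 CPM), TOP2B (9.14 against 0.709 CPM), DST (11.3 against 1.37 CPM) and MBTPS1 (7.27 against 0.355 CPM). Cytoplasmic means under 1 CPM stand for 1 or 2 tags over the 3 libraries.

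The series also holds mock libraries in which the proximity enzyme carried a nuclear localisation (NLS, 4 libraries) or nuclear export (NES, 4 libraries) signal, and their values were set beside the fractions without a test. Of 11964 units with tags there, 7973 (66.6%) had the same sign of NLS minus NES as of nuclear minus cytoplasmic. The share was 87.3% in the units higher in the nuclear fraction (2019 of 2314) and 52.2% in the lower ones (1268 of 2428). Introns called higher had the same sign in 1547 of 1771 (87.4%), snoRNA units in 43 of 58 (74.1%), and 3'UTR units called lower in 1160 of 2187 (53.0%). The NES libraries held 37831 to 114360 tags and the NLS libraries 146321 to 528719, so that 1 tag was worth 8.74 to 26.4 CPM and 1.89 to 6.83 CPM; the part of this depth gap in the shares was not tested.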
